A study of Homo sapiens with 12 samples.

Results

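The 10 genes described here encode the cytosolic chaperone HSP90, its helper proteins (cochaperones) and the mitochondrial chaperonin. They were chosen by symbol, as the cytosolic HSP90 genes HSP90AA1 and HSP90AB1, the HSP90 cochaperone genes AHSA1, STIP1, FKBP4, CHORDC1, PTGES3 and CDC37, and the HSP60 and HSP10 genes HSPD1 and HSPE1. The choice was made with earlier results of these data known. All 10 were among the 60641 symbols of the deposited count table and all passed the filter on low counts, which left 17889 genes to test. The RNA came from SRA01/04, an immortalised human lens epithelial cell line, 24 hours after treatment, and 12 libraries fell into 4 groups of 3. DHN-A cells received both 1,2-DHN (1,2-dihydroxynaphthalene, which cells form from naphthalene and which readily turns into a quinone) and the amino acid asparagine, DHN cells 1,2-DHN alone, NC-A cells asparagine alone, and NC cells neither. The study asks how asparagine alters the response of these cells to 1,2-DHN. The sources used here give neither doses nor the order of the additions. The labels do not say whether replicates were different cultures, and p-values therefore reflect no more than the spread among these libraries, which may be technical.

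HSP90 is an ATP-driven chaperone that receives client proteins, many of them kinases and steroid hormone receptors, from the HSP70 machine and releases them in an active form. Its cochaperones set the pace of that cycle and bring particular clients to it. HSP60 forms a barrel in the mitochondrial matrix in which newly imported proteins fold, with HSP10 as its lid. When unfolded proteins accumulate, the transcription factor HSF1 binds heat shock elements, arrays of short inverted GAA units, before many chaperone genes. The lens relies on chaperones because the crystallins of its fibre cells are not replaced.

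Every one of the 10 genes was higher in DHN than in NC and lower in DHN-A than in DHN. CHORDC1, FKBP4, AHSA1 and HSP90AA1 moved most in the first comparison and CDC37 least. The summed level of the 10 genes was 7793 ± 62.0 CPM (read counts per 1000000 of the scaled library size; mean ± SD, n = 3) in DHN-A, 11676 ± 622 in DHN, 7706 ± 313 in NC-A and 8017 ± 147 in NC. In DHN libraries the genes took 1.11% to 1.22% of all counts, and in the other 9 libraries 0.741% to 0.800%. These are levels in bulk RNA, in which fewer cells of a type and less RNA per cell cannot be told apart.

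Because the genes moved together, the sequences around their annotated starts are shown for the windows that hold the heat shock element letters searched for, together with the HSPE1 window, which overlaps one of HSPD1. RefSeq windows (GRCh38.p14) from 250 bases before to 50 bases after the start were found for 9 of the 10 genes, 15 windows in all. FKBP4 is named only. Each sequence reads 5′ to 3′ on the gene's strand, and capitals mark 2-unit elements (TTCNNGAA or GAANNTTC) and 3-unit elements (TTCNNGAANNTTC or GAANNTTCNNGAA). Both element types are their own reverse complement or form such a pair, so both strands are covered, and every 3-unit match contains overlapping 2-unit matches. The windows are HSP90AA1 at chr14:102086995-102087294 (minus strand), HSP90AB1 at chr6:44247693-44247992 (plus), CHORDC1 at chr11:90223000-90223299 (minus), HSPD1 at chr2:197499791-197500090 (minus), STIP1 at chr11:64185921-64186220 (plus) and HSPE1 at chr2:197500129-197500428 (plus).
HSP90AA1: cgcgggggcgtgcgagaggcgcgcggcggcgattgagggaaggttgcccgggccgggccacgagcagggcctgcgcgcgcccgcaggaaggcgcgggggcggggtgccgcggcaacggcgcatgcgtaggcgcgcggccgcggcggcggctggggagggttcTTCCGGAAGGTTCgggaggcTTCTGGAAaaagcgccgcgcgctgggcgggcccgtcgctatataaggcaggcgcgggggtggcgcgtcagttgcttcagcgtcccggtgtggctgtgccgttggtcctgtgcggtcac
HSP90AB1: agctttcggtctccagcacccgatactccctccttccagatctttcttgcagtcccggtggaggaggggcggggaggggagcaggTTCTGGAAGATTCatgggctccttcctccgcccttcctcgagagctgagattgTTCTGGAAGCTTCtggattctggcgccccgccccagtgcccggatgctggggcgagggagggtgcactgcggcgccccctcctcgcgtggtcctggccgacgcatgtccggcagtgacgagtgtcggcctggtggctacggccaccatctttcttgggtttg
CHORDC1: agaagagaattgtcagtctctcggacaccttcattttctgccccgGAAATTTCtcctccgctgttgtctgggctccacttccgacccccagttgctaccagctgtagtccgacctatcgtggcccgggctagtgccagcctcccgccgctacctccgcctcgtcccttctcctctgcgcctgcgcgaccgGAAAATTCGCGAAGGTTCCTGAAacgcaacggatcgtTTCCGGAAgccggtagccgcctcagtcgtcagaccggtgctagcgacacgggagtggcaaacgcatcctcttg
HSPD1: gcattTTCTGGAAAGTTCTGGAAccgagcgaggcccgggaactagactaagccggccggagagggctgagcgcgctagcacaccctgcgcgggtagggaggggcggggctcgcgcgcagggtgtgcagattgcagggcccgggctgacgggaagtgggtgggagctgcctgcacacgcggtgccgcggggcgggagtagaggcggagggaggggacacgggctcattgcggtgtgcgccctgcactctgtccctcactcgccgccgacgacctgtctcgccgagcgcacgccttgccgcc
STIP1: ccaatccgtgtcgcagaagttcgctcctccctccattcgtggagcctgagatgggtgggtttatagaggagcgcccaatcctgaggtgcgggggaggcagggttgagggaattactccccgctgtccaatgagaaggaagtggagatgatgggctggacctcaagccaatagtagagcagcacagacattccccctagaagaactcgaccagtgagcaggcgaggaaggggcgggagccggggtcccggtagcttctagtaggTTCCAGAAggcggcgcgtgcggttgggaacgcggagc
HSPE1: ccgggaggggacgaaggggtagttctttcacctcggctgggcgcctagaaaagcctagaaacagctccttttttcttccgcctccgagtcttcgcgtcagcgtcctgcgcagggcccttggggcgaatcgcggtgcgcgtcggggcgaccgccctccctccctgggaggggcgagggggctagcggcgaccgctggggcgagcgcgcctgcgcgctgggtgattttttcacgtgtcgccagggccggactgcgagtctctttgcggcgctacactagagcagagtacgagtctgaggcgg

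A 3-unit element lay in a window of 4 of the 9 genes, HSP90AA1, HSP90AB1, CHORDC1 and HSPD1. Over all RefSeq windows of this length, 0.490% of 35116 held one, and 0.608% of 27305 symbols had one in any window. A 2-unit element lay in a window of 5 of the 9 genes, the same 4 and STIP1, against 13.5% of all windows and 16.2% of all symbols. The HSP90AA1 matches ran from -88 to -61 relative to the annotated start, those of HSPD1 from -245 to -228, and that of STIP1 from 13 to 20. CHORDC1 had 3 matches of the 3-unit kind, HSP90AB1 and HSPD1 had 2 each and HSP90AA1 had 1. The other windows of these genes, and those of AHSA1, PTGES3, CDC37 and HSPE1, had no match to these letters, which says nothing about binding there. The HSPE1 window shares 204 bases with the second HSPD1 window, and these starts are 105 bases apart on opposite strands, facing away from each other. The start of the first HSPD1 window is 539 bases from the HSPE1 start. The HSPD1 matches lie between them, upstream of both starts but outside the HSPE1 window. Matching letters are a description of sequence; binding was not measured.

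Depth ran from 12381071 counts in DHN 1 to 27526206 in DHN-A 1. NC-A 1 stood apart from the other NC-A libraries on the first principal component of all tested genes (33.9% of variance), at 65.1 against 12.5 and 10.4. Of 15 lens markers 9 averaged under 1 CPM, among them FOXE3, CRYAA and MIP, and their sum was 49.7 to 53.2 CPM in DHN-A, 62.0 to 67.0 in DHN, 44.3 to 46.9 in NC-A and 47.9 to 50.5 in NC. The sum of 8 fibroblast markers was 1194 to 1263 CPM in DHN-A, 820 to 872 in DHN, 1210 to 1217 in NC-A and 1383 to 1462 in NC, with PDGFRA, DCN and LUM under 1 CPM. All 8 immune markers averaged under 1 CPM over the libraries, with sums of 1.44 to 2.10 CPM in DHN-A, 2.10 to 3.30 in DHN, 0.961 to 1.45 in NC-A and 1.31 to 1.74 in NC. So did 7 of 8 keratinocyte markers. The sums of all 8 were 29.8 to 34.7 CPM in DHN-A and 35.9 to 39.1 in DHN. In NC-A they were 30.7 to 35.8 CPM and in NC 29.1 to 32.0. CRYAB, a lens crystallin and small heat shock protein, averaged 10.8 ± 1.35 CPM in DHN and 0.704 ± 0.345 in NC. DHN had the highest lens and keratinocyte sums and the lowest fibroblast sums, the immune sums of DHN-A and DHN overlapped, and their part in the results was not tested. Single genes weighed heavily in these sums. CRYAB is part of the lens sum and of its rise in DHN. KRT10 alone averaged 36.1 ± 1.53 CPM in DHN and 30.3 ± 1.39 in NC, and COL1A1 alone 692 ± 24.5 and 1234 ± 43.4.

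**Figure D1:**
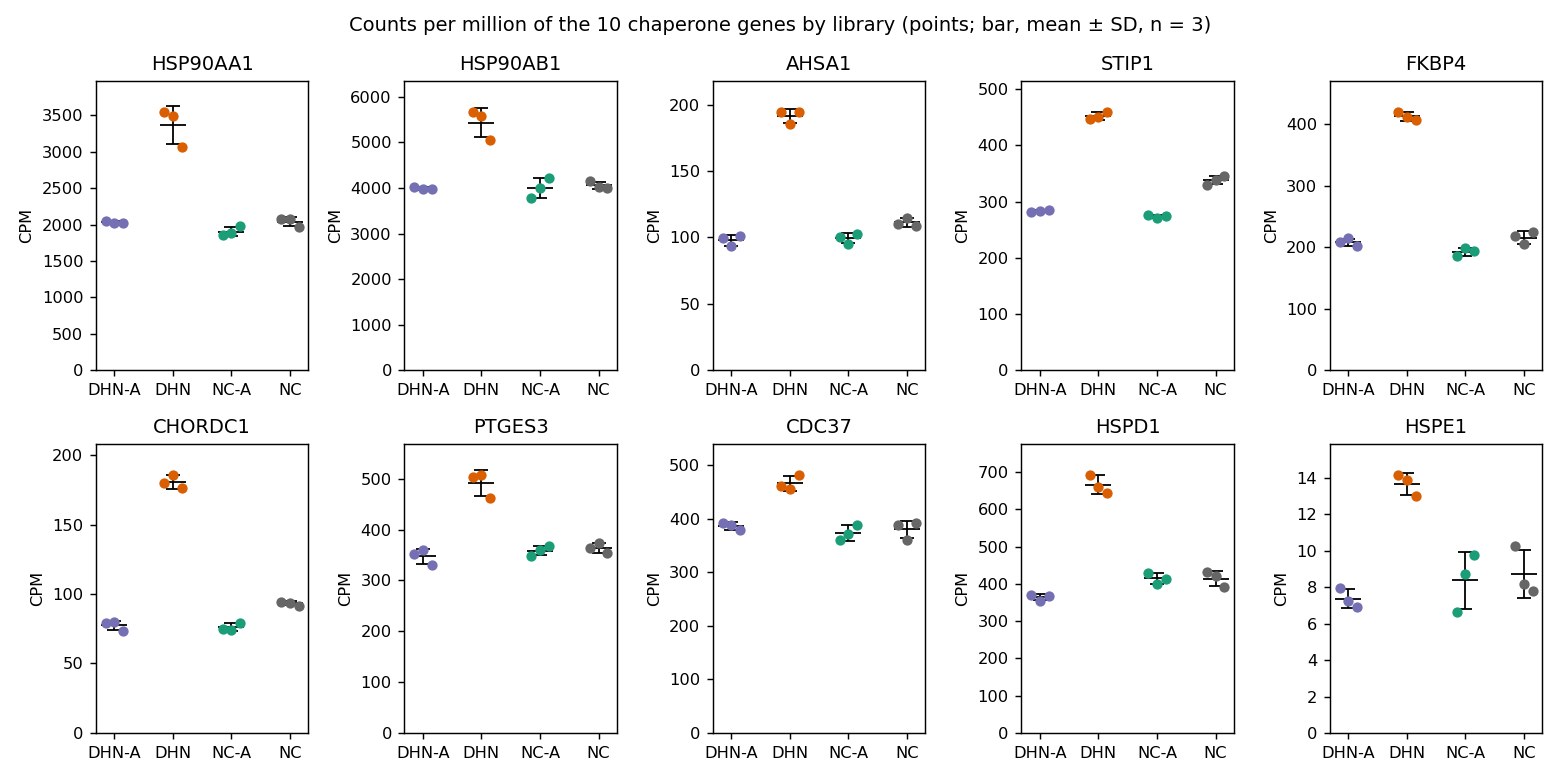
CPM (y axis, from 0) of each of the 10 genes in the 4 groups (x axis); points are the 3 libraries of a group and the bar is their mean ± SD. The 3 DHN libraries are the highest in every panel, and HSPE1 lies under 15 CPM throughout.

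HSP90AA1 is the stress-inducible cytosolic HSP90 gene (chromosome 14, 102080738 to 102139699, minus strand, GENCODE 29 on GRCh38, as for all genes below). Its level was 2054, 2022 and 2022 CPM in DHN-A libraries 1, 2 and 3, 3545, 3496 and 3066 CPM in DHN, 1851, 1882 and 1980 CPM in NC-A, and 2071, 2077 and 1964 CPM in NC. The lowest DHN library, DHN 3, was still above all 9 libraries of the other groups. HSP90AB1, the constitutive cytosolic HSP90 gene (chromosome 6, 44246166 to 44253888, plus strand), stood at 4019, 3968 and 3975 CPM in DHN-A, 5666, 5570 and 5062 CPM in DHN, 3780, 4007 and 4227 CPM in NC-A, and 4151, 4019 and 3994 CPM in NC. Again DHN 3 was the lowest DHN library and lay above the rest. In DHN against NC, HSP90AA1 rose by 0.73 ± 0.041 on the log2 scale (changes are log2 ± SE here and below; edgeR quasi-likelihood, adjusted p = 3.76e-15) and HSP90AB1 by 0.42 ± 0.038 (edgeR adjusted p = 1.17e-11). Between DHN-A and DHN, HSP90AA1 fell by 0.73 and HSP90AB1 fell by 0.45 in DHN-A.

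The inducible gene moved more than the constitutive one. The log2 ratio of HSP90AA1 to HSP90AB1 counts within a library, which needs no scaling, was -0.97 ± 0.0033 in DHN-A, -0.69 ± 0.029 in DHN, -1.07 ± 0.036 in NC-A and -0.99 ± 0.037 in NC (SD, n = 3). The ratio was 0.30 higher in DHN than in NC, with no overlap between the groups, at p = 0.1 in an exact two-sided permutation test; 3 libraries against 3 cannot give a smaller p. DHN-A lay 0.28 below DHN (difference -0.28, exact permutation p = 0.1, no overlap) and 0.021 above NC, where the groups overlapped (exact permutation p = 0.4). The ratio was 0.099 higher in DHN-A than in NC-A, again with no overlap (exact permutation p = 0.1). NC-A itself lay below NC, with a difference of -0.078 and no overlap (exact permutation p = 0.1). Per kilobase of the deposited gene length, HSP90AA1 was 22.4% to 22.5% of the cytosolic HSP90 level in DHN-A, 25.6% to 26.3% in DHN, 21.0% to 21.8% in NC-A and 21.8% to 22.7% in NC. Pseudogenes named after HSP90AA1 held 0.163% to 1.06% of that family's counts in a library and those of HSP90AB1 0.123% to 0.913%. With their counts added, the DHN against NC difference of the ratio was likewise 0.30.

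**Figure D2:**
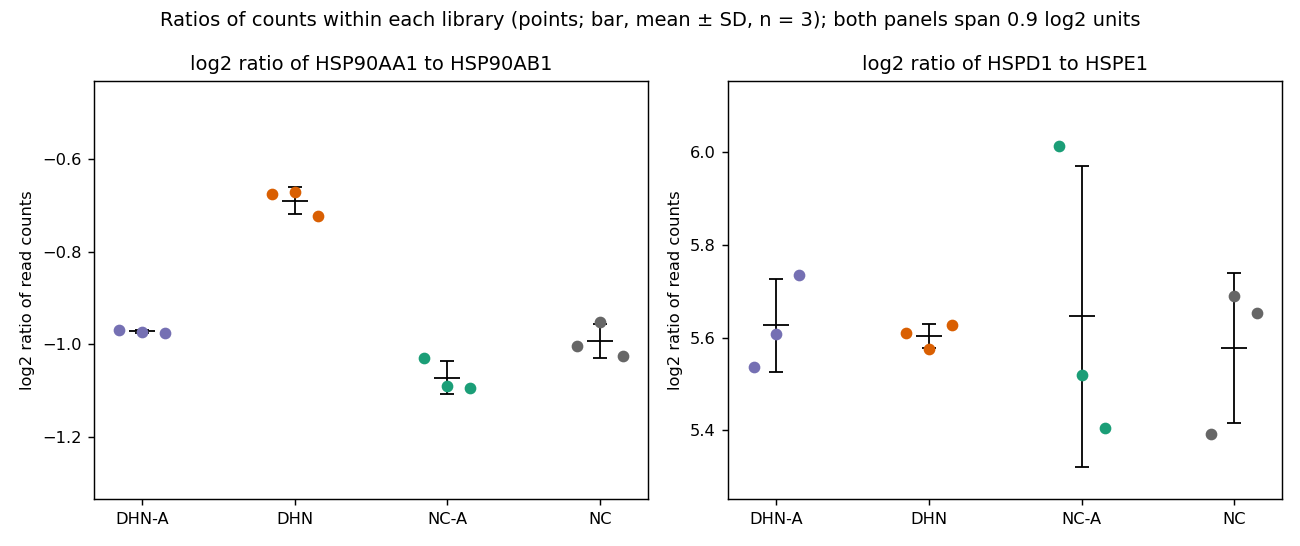
Log2 ratio of read counts (y axis; both panels span the same width) of HSP90AA1 to HSP90AB1 (left) and of HSPD1 to HSPE1 (right) in each library of the 4 groups; points are libraries and the bar is the mean ± SD of 3. On the left DHN, at -0.72 to -0.67, lies above all other libraries; on the right the groups overlap and NC-A 1, at 6.01, is the highest.

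Among the cochaperone genes, CHORDC1 and FKBP4 moved most. CHORDC1 (chromosome 11, 90201160 to 90223364, minus strand) encodes an HSP90-binding protein with CHORD zinc-binding domains, also called morgana. It stood at 79.0, 79.6 and 73.6 CPM in DHN-A, 180, 186 and 176 CPM in DHN, 74.7, 73.9 and 79.3 CPM in NC-A, and 94.3, 93.7 and 91.5 CPM in NC. FKBP4 (chromosome 12, 2794953 to 2805423, plus strand) encodes FKBP52, a peptidyl-prolyl isomerase of steroid receptor complexes, and stood at 208, 214 and 202 CPM in DHN-A, 420, 412 and 406 CPM in DHN, 186, 199 and 194 CPM in NC-A, and 218, 205 and 225 CPM in NC. For both genes DHN was far above every other library, and for CHORDC1 the NC libraries formed a middle level above DHN-A and NC-A. In DHN against NC, CHORDC1 rose by 0.96 ± 0.044, or 1.94-fold (edgeR adjusted p = 7.05e-23), and FKBP4 by 0.93 ± 0.040, or 1.91-fold (edgeR adjusted p = 2.54e-24). Of all tested genes 5.55% had a larger absolute change than CHORDC1 and 5.78% than FKBP4. When DHN-A was set against DHN, CHORDC1 changed by -1.22 ± 0.044 and FKBP4 by -0.99 ± 0.039, and 2.97% and 5.37% of genes changed more. Transcripts on the opposite strand share 11.4% of the exon bases of FKBP4. The sources used here do not say whether counting used strand, so reads there cannot be assigned.

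AHSA1 and STIP1 were also highest in the 3 DHN libraries. AHSA1 (chromosome 14, 77457870 to 77469474, plus strand) encodes AHA1, the activator of the HSP90 ATPase, and ranged from 93.3 to 101 CPM in DHN-A, 186 to 195 in DHN, 95.2 to 103 in NC-A and 109 to 115 in NC. It rose by 0.78 ± 0.043 in DHN against NC (edgeR adjusted p = 6.28e-20) and changed by -0.97 ± 0.043 in DHN-A against DHN. STIP1 (chromosome 11, 64185272 to 64204543, plus strand) encodes HOP, the adaptor that links HSP70 to HSP90. Its level was 282, 283 and 286 CPM in DHN-A, 446, 450.2 and 459 CPM in DHN, 277, 271 and 274 CPM in NC-A, and 330, 339 and 346 CPM in NC. The 4 groups of STIP1 did not overlap, with DHN on top, then NC, then DHN-A and then NC-A. STIP1 rose by 0.42 ± 0.035 in DHN against NC (edgeR adjusted p = 9.72e-14). It changed by -0.67 ± 0.035 when DHN-A was set against DHN (edgeR adjusted p = 9.68e-21).

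PTGES3 and CDC37 were highest in DHN as well, and CDC37 moved least of the cochaperone genes both in DHN against NC and between DHN-A and DHN. PTGES3 (chromosome 12, 56663341 to 56688408, minus strand) encodes p23, which stabilises the closed, ATP-bound form of HSP90, and ranged from 331 to 359 CPM in DHN-A, 463 to 508 in DHN, 349 to 367 in NC-A and 355 to 374 in NC. CDC37 (chromosome 19, 10391134 to 10420121, minus strand) encodes the cochaperone that brings protein kinases to HSP90, and ranged from 379 to 392 CPM in DHN-A, 456 to 483 in DHN, 360 to 389 in NC-A and 361 to 392 in NC. The other 3 groups overlapped with each other for both genes, and DHN lay above them. PTGES3 rose by 0.43 ± 0.039 in DHN against NC and CDC37 by 0.30 ± 0.038, which is 1.23-fold (edgeR adjusted p = 7.51e-13 and 1.07e-08). A change as small as that of CDC37 was common, since 40.2% of tested genes changed more. PTGES3 changed by -0.50 ± 0.039 and CDC37 by -0.27 ± 0.038 in DHN-A against DHN.

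The chaperonin genes HSPD1 (HSP60; chromosome 2, 197486581 to 197516737, minus strand) and HSPE1 (HSP10; chromosome 2, 197499994 to 197503457, plus strand) are neighbours and overlap. HSPD1 stood at 369, 354 and 368 CPM in DHN-A, 693, 661 and 643 CPM in DHN, 430, 400 and 414 CPM in NC-A, and 430, 421 and 391 CPM in NC. NC-A and NC overlapped for HSPD1, DHN lay above both, and all 3 DHN-A libraries lay below both. HSPD1 rose by 0.68 ± 0.039 in DHN against NC (edgeR adjusted p = 1.03e-19) and changed by -0.87 ± 0.039 in DHN-A against DHN (edgeR adjusted p = 1.75e-23). HSPE1 stood at 6.90 to 7.94 CPM in DHN-A, 13.0 to 14.2 in DHN, 6.65 to 9.76 in NC-A and 7.77 to 10.3 in NC, from 2223 reads over all libraries. HSPE1 rose by 0.66 ± 0.12 in DHN against NC (edgeR adjusted p = 1.69e-05). Between DHN-A and DHN it changed by -0.89 ± 0.12 (edgeR adjusted p = 3.86e-08).

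The level of HSPE1 is uncertain. The 27 other symbols named after HSPE1, nearly all pseudogenes, held 16.7% to 29.5% of the family's counts in a library, against 0.666% to 4.86% for the relatives of HSPD1. The readthrough gene HSPE1-MOB4, which covers 9.71% of the HSPE1 exon bases on the same strand, has 0 counts in all libraries, and HSPD1 covers 14.2% on the opposite strand. The log2 ratio of HSPD1 to HSPE1 counts was 5.63 ± 0.10 in DHN-A, 5.60 ± 0.026 in DHN, 5.65 ± 0.32 in NC-A and 5.58 ± 0.16 in NC (SD, n = 3). DHN minus NC was 0.026 (exact two-sided permutation p = 1) and DHN-A minus DHN 0.023 (exact permutation p = 0.9). With pseudogene counts added on both sides these became 0.084 (exact permutation p = 0.6) and 0.054 (exact permutation p = 0.1, no overlap). The differences without them are smaller than the spread between libraries, and at this depth a small unequal change of the 2 genes was not detectable.

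Counted together, 10 of 10 genes were called higher in DHN against NC, where 19.7% of all tested genes were called higher (threshold, adjusted p of 0.05). Their median log2 change was 0.67, against 0.0073 over all tested genes, and for each gene the 3 DHN libraries lay above the 3 NC libraries, as they did for 23.7% of all tested genes. All 10 were called lower in DHN-A against DHN, where 20.8% of all genes were, with a median of -0.80 against 0.0091. These comparisons share the DHN libraries and are therefore not independent of each other. Because the 10 genes were chosen with earlier results of these data known, their counts beside the shares of all genes are a description. They are not an independent test of the set, and the same holds for the counts in the comparisons below.

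**Figure D3:**
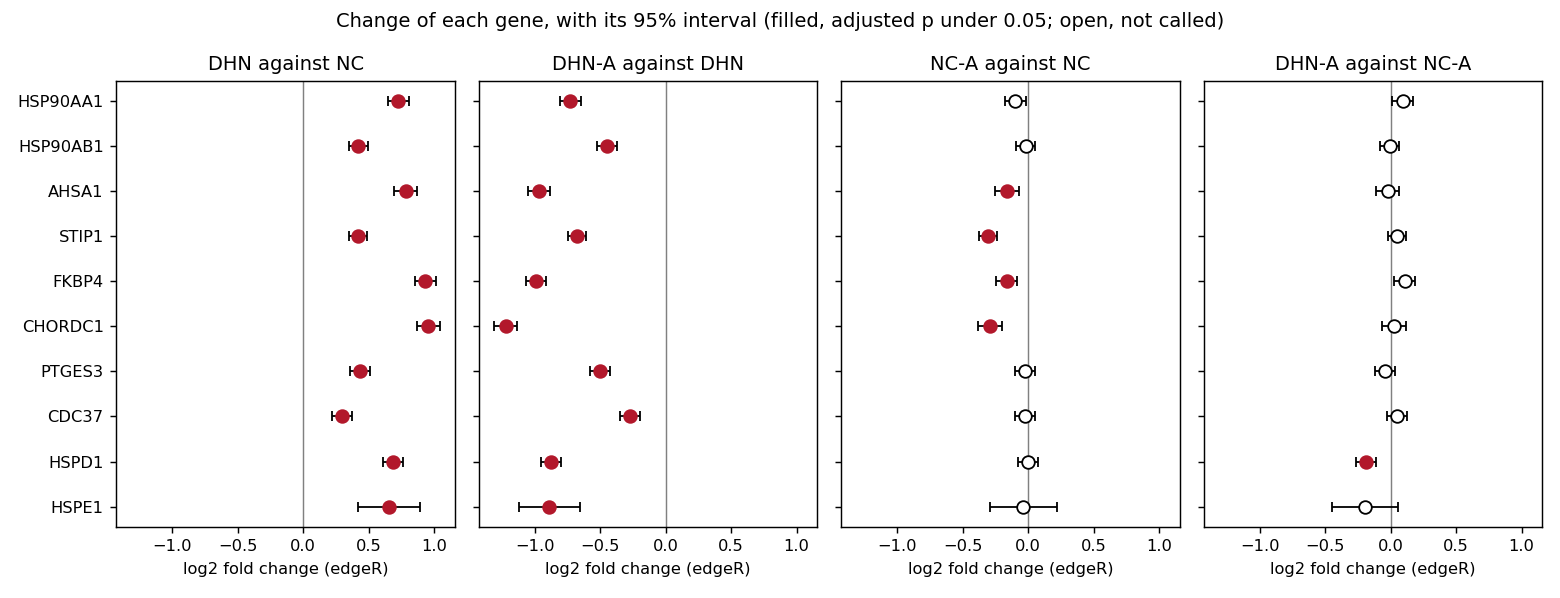
Log2 fold change (x axis, edgeR) of the 10 genes (y axis) in 4 comparisons, with bars of 95% intervals; filled points had an adjusted p under 0.05. All 10 points lie right of 0 in DHN against NC and left of 0 in DHN-A against DHN; in DHN-A against NC-A HSPD1, at -0.19, is the only filled point.

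Asparagine without 1,2-DHN moved 4 of the cochaperone genes by a little. In NC-A against NC, 4 of 10 genes were called lower, where 10.9% of all genes were. STIP1 changed by -0.31 ± 0.036 (edgeR adjusted p = 8.01e-09), CHORDC1 by -0.29 ± 0.047 (7.05e-06), FKBP4 by -0.16 ± 0.041 (0.00288) and AHSA1 by -0.16 ± 0.046 (0.00797). For these 4 genes the NC-A libraries lay below all NC libraries, as they did for 17.2% of all tested genes, but AHSA1 was no longer called without NC-A 2 (edgeR adjusted p = 0.0700). HSP90AA1, at -0.10 ± 0.041 (edgeR adjusted p = 0.0955), was called with no filter on low counts, without DHN 3 and without NC-A 3. The changes of HSP90AB1, PTGES3, CDC37, HSPD1 and HSPE1 lay between -0.035 and 0.0019, all with an adjusted p of 0.700 or more (edgeR).

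With asparagine present, 1,2-DHN moved 1 of the 10 genes past the threshold. In DHN-A against NC-A, HSPD1 was lower by a log2 change of -0.19 ± 0.039 (edgeR adjusted p = 0.00251), where 2.1% of all genes were called in either direction. The share of all genes rests on single libraries, since 375 genes were called with all of them and 143 without DHN-A 2. For the other 9 genes the 95% intervals, taken from the fold change and its SE, lay between -0.45 and 0.19, and without HSPE1 between -0.12 and 0.19. HSP90AA1 (0.09 ± 0.041), STIP1 (0.05 ± 0.036) and FKBP4 (0.11 ± 0.040) had no overlap between DHN-A and NC-A libraries and were not called (edgeR adjusted p = 0.302, 0.611 and 0.185). With HSPD1, 4 of 10 genes did not overlap there, against 18.4% of all tested genes.

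The effect of 1,2-DHN differed by asparagine for each gene. The interaction, (DHN-A minus NC-A) minus (DHN minus NC), was called lower for 10 of 10 genes, where 12.5% of all genes were, with a median of -0.72 against -0.00018 over all genes. It ran from -0.93 ± 0.065 for CHORDC1 to -0.25 ± 0.054 for CDC37 (edgeR adjusted p = 7.91e-16 and 0.000405). Against untreated cells, DHN-A was lower for 4 of 10 genes, where 11.2% of all genes were called lower. CHORDC1 (-0.27 ± 0.045), STIP1 (-0.26 ± 0.035), HSPD1 (-0.19 ± 0.039) and AHSA1 (-0.18 ± 0.044) were these 4 (edgeR adjusted p = 1.42e-05, 2.69e-07, 0.000271 and 0.00164). HSP90AA1 and HSP90AB1 differed from NC by -0.0031 ± 0.041 and -0.024 ± 0.037 there (edgeR adjusted p = 0.969 and 0.716).

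Levels per kilobase place HSP90AB1 first in every group. It stood at 1338 ± 9.23 CPM per kb in DHN-A, 1823 ± 109 in DHN, 1344 ± 75.0 in NC-A and 1361 ± 28.3 in NC (SD, n = 3), followed by HSP90AA1 at 387 ± 3.50, 642 ± 50.3, 363 ± 12.9 and 388 ± 12.2 CPM per kb in the same groups. In DHN-A, NC-A and NC the next in order were CDC37, PTGES3 and HSPD1, and then STIP1, FKBP4, AHSA1, CHORDC1 and HSPE1. The libraries of PTGES3 and HSPD1 overlapped in NC-A and NC, so their order there is not resolved. In DHN, HSPD1, at 161 ± 6.13 CPM per kb, stood before CDC37, at 154 ± 4.56, with overlapping libraries. CHORDC1 and HSPE1 were lowest, at 7.0 ± 0.30 and 4.04 ± 0.290 CPM per kb in DHN-A and 16.3 ± 0.431 and 7.51 ± 0.333 in DHN. The deposited length of CHORDC1 is 11099 bases, and levels per kilobase rest on such lengths. The level of HSPE1 is uncertain, as described above, and so is its place in the order.

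Across the 12 libraries the levels of the 10 genes varied together. The Pearson r of each gene's log2 CPM with the mean of the other 9 ran from 0.918 for HSPE1 to 0.991 for CHORDC1. Of 12043 other genes with enough counts, among those most like the mean of the 10 were KLF5, a transcription factor (r = 0.995), FTSJ3, a ribosome assembly factor (0.994), HSPA4, an HSP110-type HSP70 partner (0.994) and BRD2, a bromodomain protein (0.991). These r values describe libraries of 4 groups that share treatments and depth, and they carry no test. In DHN against NC the log2 change was 0.97 ± 0.083 for KLF5, 0.32 ± 0.046 for FTSJ3, 0.54 ± 0.038 for HSPA4 and 0.92 ± 0.037 for BRD2.

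The other genes of the HSP90 system were less uniform. Of 32 further HSP90 cochaperone genes, all tested, 16 were higher and 4 lower in DHN against NC, with a median of 0.17, where 19.7% of all genes were called higher and 19% lower. CACYBP, a calcyclin-binding CS-domain protein, averaged 402 ± 13.1 CPM in DHN and 269 ± 1.87 CPM in NC (0.58 ± 0.037, edgeR adjusted p = 9.23e-18). SGTA, a small TPR cochaperone, rose by 0.42 ± 0.041 and NUDC, a CS-domain cochaperone, by 0.40 ± 0.040. PIH1D1, a subunit of the R2TP complex that works with HSP90 in assembling large complexes, changed by -0.47 ± 0.050. Of the same 32 genes 6 were higher, near the 20.9% of all genes, and 15 lower in DHN-A against DHN, with a median of -0.11; CACYBP changed by -0.91 ± 0.037 and NUDCD3, another CS-domain cochaperone, by 0.52 ± 0.040. In NC-A against NC 3 of the 32 were higher and 4 lower, close to the shares over all genes (9.32% higher and 10.9% lower).

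The HSP90 genes of other compartments went the other way. HSP90B1, which encodes GRP94 of the endoplasmic reticulum, averaged 899 ± 23.3 CPM in DHN-A, 891 ± 55.0 in DHN, 1015 ± 36.9 in NC-A and 1203 ± 32.3 in NC (SD, n = 3). TRAP1, the mitochondrial HSP90, averaged 71.7 ± 5.74 CPM in DHN-A, 55.5 ± 1.15 in DHN, 73.8 ± 6.44 in NC-A and 69.4 ± 2.40 in NC. In DHN against NC, HSP90B1 changed by -0.43 ± 0.038 and TRAP1 by -0.32 ± 0.059 (edgeR adjusted p = 5.01e-13 and 1.56e-05). In DHN-A against DHN, TRAP1 was higher by 0.37 ± 0.057 (edgeR adjusted p = 1.05e-06), while HSP90B1 was not called, at 0.014 ± 0.038 (edgeR adjusted p = 0.799). HSP90B1 was also lower in NC-A against NC, by -0.25 ± 0.038 (edgeR adjusted p = 3.30e-06).

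A list of 20 mitochondrial chaperone and protease genes again includes TRAP1. Of these, 8 were higher and 3, TRAP1 among them, lower in DHN against NC (19.7% and 19% of all genes), with a median of 0.10. HSPA9, the HSP70 of the matrix, averaged 791 ± 7.57 CPM in DHN-A, 1131 ± 59.3 in DHN and 759 ± 14.5 in NC. It rose by 0.57 ± 0.036 in DHN against NC, as did GRPEL1, its nucleotide exchange factor, by 0.48 ± 0.063, and TIMM44, which tethers it to the import channel, by 0.41 ± 0.050. In DHN-A against DHN 5 of the 20 were higher and 9 lower, where 20.9% of all genes were higher and 20.8% lower, with HSPA9 at -0.52 ± 0.035 and GRPEL1 at -0.58 ± 0.061.

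HSF1 itself was not called. It averaged 145 ± 2.98 CPM in DHN-A, 139 ± 1.86 in DHN, 133 ± 5.65 in NC-A and 135 ± 4.31 in NC, with a log2 change of 0.042 ± 0.042 in DHN against NC (edgeR adjusted p = 0.480). Its list of 20 genes includes HSF1 itself, HSP70 partners and other heat shock genes. Of these, 16 were higher in DHN against NC, where 19.7% of all genes were, with a median of 0.95. HSF1, HSF2, HSF4 and HSBP1 were not called. HSPA6, an inducible HSP70, averaged 11.4 ± 1.23 CPM in DHN-A, 503 ± 9.03 in DHN and 4.27 ± 0.476 in NC. BAG3, an HSP70 cochaperone, averaged 217 ± 2.56, 662 ± 1.23 and 232 ± 1.86 CPM in the same groups. DNAJB1, an HSP40, rose by 1.30 ± 0.039 in DHN against NC, and HSPA1A, another inducible HSP70, by 5.06 ± 0.12. The counts of HSPA1A and HSPA6 are uncertain, since near-identical copies could share reads. Of the 20, 17 were lower in DHN-A against DHN, where 20.8% of all genes were, with a median of -1.05. Among them were BAG3 at -1.61 ± 0.036 and HSPA6 at -5.46 ± 0.056.

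The genes of HSP90 clients had no common direction. Of 30 listed kinases, receptors and other clients, 27 were tested, and 11 were higher and 9 lower in DHN against NC, where 19.7% and 19% of all genes were, with a median of 0.066. MET, a receptor kinase, changed by -0.53 ± 0.037, EGFR by -0.33 ± 0.038 and ERBB2 by -0.45 ± 0.053. FGFR3, at 14.8 ± 1.42 CPM in DHN and 7.33 ± 0.138 in NC, rose by 1.01 ± 0.12. Between DHN-A and DHN 8 were higher in DHN-A and 11 lower (20.9% and 20.8% of all genes), with EGFR at 0.36 ± 0.037 and FGFR3 at -1.14 ± 0.12. These are transcript levels; client proteins were not measured.

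**Figure D4:**
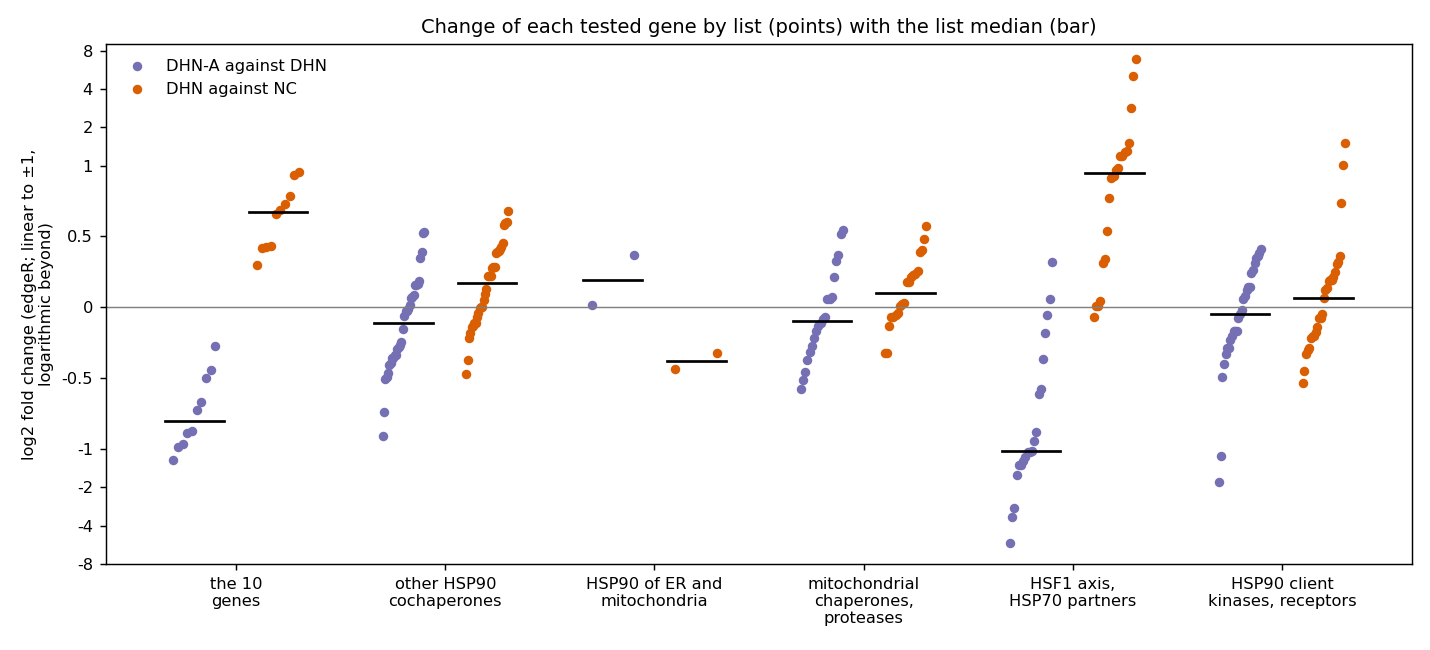
Log2 fold change (y axis, linear to ±1 and logarithmic beyond) of each tested gene of 6 lists (x axis) in DHN-A against DHN and in DHN against NC; bars are medians. The 10 genes lie on 1 side of 0 in each comparison (medians -0.80 and 0.67), whereas cochaperones outside the 10, mitochondrial genes and clients lie on both sides.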

How the data were processed

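Libraries were made from total RNA with a stranded kit, per the labels' protocols. The deposited values are whole-number read counts per gene symbol, with a gene length, as the authors made them; the build was hg38 and Bowtie is named, per the submitters' processing notes. The sources used here do not name the counting tool, its strand setting or its treatment of reads that match several genes; such reads can be lost or split between near-identical genes.

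Groups came from the sample titles. Genes passing edgeR's filterByExpr were fitted over the 12 libraries by robust quasi-likelihood with TMM factors and a mean for each group (edgeR 4.0.16 in R 4.3.3). P-values were adjusted by Benjamini-Hochberg over 17889 genes, with a threshold of 0.05. SEs were derived from the fold change and its test and are approximate. CPM were computed from counts and scaled library sizes. Replicates varied by 4.60% beyond counting noise. Within each group no library appeared to be a copy of another (mean chi-square per gene 1.77 to 4.30). Libraries of different groups were not compared in this way. The labels give no batch. The procedure was tested on simulated data, where a recovery target set over all genes was missed and was then replaced by one over genes that averaged 50 counts or more. Alternatives were DESeq2 1.42.0, limma 3.58.1 voom, other scaling, no filter, a replicate block, a fit to the compared groups alone, and each library omitted in turn.

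The members and lists were chosen with earlier results of these data known. Named were the 10 genes in every comparison and, from each other list, up to 4 called genes of smallest p in DHN against NC and up to 2 in DHN-A against DHN. Likeness took the 5 genes of highest r with a mean of at least 50 counts; genes with placeholder names were left out. One of the results that this rule selects is not reported here. HSF1 and the other uncalled genes of its list were named after their values were seen. Marker lists are given as sums, with CRYAB, KRT10 and COL1A1 from the rule.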

Additional observations from a re-analysis of the deposited data

Results flagged for a closer look

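The effect of 1,2-DHN differed between cells with and without added asparagine for all 10 genes, by the interaction term of the edgeR fit. The interaction, (DHN-A minus NC-A) minus (DHN minus NC) on the log2 scale, was -0.63 for HSP90AA1 and -0.43 for HSP90AB1. Among the cochaperone genes it was -0.93 for CHORDC1, -0.83 for FKBP4, -0.80 for AHSA1, -0.48 for PTGES3, -0.37 for STIP1 and -0.25 for CDC37. For the chaperonin genes it was -0.87 for HSPD1 and -0.85 for HSPE1, the last from few reads. Each had an adjusted p of 0.000405 or less (edgeR, over 17889 genes). A negative value here means a smaller or more negative change with 1,2-DHN when asparagine was present.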

How the results depend on the processing

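In DHN against NC, DHN-A against DHN and the interaction, all 30 results of single genes kept their call and direction under the 18 alternatives run for each pair of groups and the 17 for the interaction. In the other 3 comparisons 10 of 30 changed call or sign under some alternative, and the cause was not tested. The count of all genes called in DHN-A against NC-A ranged from 143 to 426 with a library left out, against 375 with all: 230 without DHN-A 1, 143 without DHN-A 2, 226 without NC-A 2 and 170 without NC-A 3.

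The sign changes were of genes that were not called. HSPD1 in NC-A against NC was 0.0019 in the fit reported, -0.0063 with relative log expression factors, -0.0062 with DESeq2, -0.0274 with no filter, and -0.0388 to 0.0266 with a library left out. With a library left out, NC-A against NC ran from -0.0605 to 0.0225 for HSP90AB1, -0.0631 to 0.00055 for CDC37 and -0.171 to 0.104 for HSPE1. For DHN-A against NC-A, HSP90AB1 was 0.0263 with no filter and -0.0457 to 0.0371 with a library left out, and AHSA1 was 0.0111 and -0.0491 to 0.0125. For DHN-A against NC, HSP90AA1 was 0.00053 with no filter and -0.0274 to 0.0118 with a library left out, and CDC37 ran from -0.0106 to 0.0487. The HSPD1 to HSPE1 ratio, for which no difference was called, ran from -0.0671 to 0.0816 in DHN against NC and from -0.0314 to 0.0678 in DHN-A against DHN with a library left out.

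Correlations of same-numbered deviations ran from -0.169 to 0.215. Other-numbered correlations were not set beside them, so this cannot decide whether replicate numbers pair the samples. With the replicate number as a block, 10, 10, 4, 1, 4 and 10 of the genes were called in DHN against NC, DHN-A against DHN, NC-A against NC, DHN-A against NC-A, DHN-A against NC and the interaction, the same counts as without it, and 334 genes in all in DHN-A against NC-A. Few reads limit HSPE1, and 3 libraries a group limit every exact test.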

Other observations

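Pseudogenes named after the 10 genes were counted at low levels that differed between libraries of the same group. Their summed level was 56.2, 38.6 and 74.4 CPM in DHN-A libraries 1, 2 and 3, 115, 114 and 122 CPM in DHN, 15.7, 65.9 and 73.5 CPM in NC-A, and 83.1, 68.6 and 75.8 CPM in NC. NC-A 1 was the lowest, and all 3 DHN libraries were the highest. Of the 10 genes themselves, 5 were lowest of all libraries in NC-A 1, namely HSP90AA1, HSP90AB1, FKBP4, CDC37 and HSPE1. How many of all tested genes were lowest in NC-A 1 was not counted, so this is not a trait of the 10 genes. In DHN-A against DHN, 5 of 16 tested relatives were called lower (edgeR), where 20.8% of all genes were, and all 16 had a negative log2 change, with a median of -1.13. In DHN against NC, 14 of 16 had a positive one, with a median of 0.72, but edgeR, DESeq2 and limma-voom each called 0 of them, and 1 had an unadjusted p under 0.05 (edgeR). Reads that also match the parent gene could move these values, and their part was not tested.

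The chaperone genes with a 3-unit heat shock element in a RefSeq start window changed by 0.73 (HSP90AA1), 0.42 (HSP90AB1), 0.96 (CHORDC1) and 0.68 (HSPD1) in DHN against NC. Those whose windows lacked these letters changed by 0.78 (AHSA1), 0.43 (PTGES3), 0.30 (CDC37) and 0.66 (HSPE1), and STIP1, with a 2-unit element, by 0.42. The HSPD1 matches also lie upstream of the RefSeq start of HSPE1, outside its window. FKBP4, for which no window was found, changed by 0.93 and belongs to neither set. The ranges with and without a 3-unit element overlap. No test was made, and any part of these elements in the changes was not tested.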
